A study of Sus scrofa with 22 samples.

Results

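Integrin and laminin genes of the pig were taken by symbol: the annotation held 38 genes named as chains of integrin alpha (ITGA), integrin beta (ITGB) or laminin (LAMA, LAMB, LAMC), and 19 of them had a transcript record that could be matched in the expression tables, out of 14389 genes with a matched record. The 19 were 7 integrin alpha chains, 7 integrin beta chains, 2 laminin alpha chains, 1 laminin beta chain and 2 laminin gamma chains. Genes such as ITGA1, ITGA3, ITGA6, ITGA7, ITGA8, ITGA9, ITGA10, ITGA11, ITGAD, ITGAE, ITGAX, ITGB4, LAMA1, LAMA2, LAMA5, LAMB2, LAMB3 and LAMB4 were not matched to any record, so they are not analysed here. Of the 19, 8 had every annotated transcript matched.

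Integrins are cell-surface receptors made of an alpha and a beta chain that join the matrix outside a cell to its actin cytoskeleton, and laminins are matrix proteins made of an alpha, a beta and a gamma chain. Laminins form the sheet of basement membranes on which epithelium, endothelium, muscle and nerve sit, and integrins with the ITGB1 chain are among their main receptors. In the early embryo both families serve in the attachment of the blastocyst, in gastrulation and in the shaping of tissues.

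RNA of pig (Sus scrofa) was sequenced from 14 libraries of fetal body tissue and 8 libraries of day 6 blastocysts grown in vitro. At day 30 and again at day 35 there were 2 libraries of cloned fetuses titled abnormal, 3 of cloned fetuses titled normal and 2 of naturally fertilized (NF) fetuses. All fetuses were labelled male except day 30 NF replicate 2, labelled female. The labels give no strain, no donor cell line and no definition of abnormal, and they do not say whether replicates were separate animals, so p-values measure the spread between these libraries only. Blastocysts came in 4 groups of 2 libraries: WT (cloned, male), XIST-KO (cloned, male, XIST knocked out), WT+Kdm4A (cloned, male, with Kdm4A, a histone demethylase) and IVF (fertilized in vitro, male and female pooled). XIST had no matched record, so the knockout could not be checked here.

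Several fetus libraries stood apart from the rest. Total counts ran from 3.464 to 11.536 M (mega-counts) in 13 fetus libraries, and day 35 abnormal replicate 2 held 0.589 M. Embryo libraries held 6.449 to 20.352 M. Day 35 abnormal replicates 1 and 2 had a rank correlation of 0.859 across genes, against 0.958 to 0.982 for the replicate pairs of the other fetus groups. The summed level of 4 Y-linked genes, chosen after their values were seen, went against the labelled sex in 4 fetus libraries. It was 4.6 and 2.7 CPM (counts per mega-count of library depth, scaled by edgeR) in the day 35 abnormal libraries and 0.273 CPM in day 30 NF replicate 1, all labelled male, and 1070 CPM in day 30 NF replicate 2, labelled female. The other fetus libraries held 406 to 1220 CPM. In embryos the sum was 7.57 and 2.44 CPM in WT and 6.93 and 0.0625 CPM in XIST-KO libraries, all labelled male. It was 178 and 54.2 CPM in WT+Kdm4A, also labelled male, and 12.4 and 3.44 CPM in IVF, labelled as pooled. The part of these levels in the embryo comparisons was not tested. The sum did not overlap between WT+Kdm4A and WT, so a difference between those groups cannot be told apart from one in Y-linked level. Labels were kept as given, and whether a sex label or a library is misassigned was not tested. Every day 35 difference between abnormal and normal libraries is also one between low and high Y-linked levels, and the 2 cannot be told apart. Values are given at each day apart, and with single libraries left out where that changed a call. Body tissue markers were also uneven: the 10 matched skeletal muscle markers summed to 170 to 362 CPM in day 30 abnormal, 536 to 810 CPM in day 30 normal, 69.8 to 728 CPM in day 35 abnormal and 1450 to 2720 CPM in day 35 normal libraries. SOX10, a transcription factor of Schwann cells and other neural crest derivatives, was at 0 in both day 35 abnormal libraries. That 0 allows a level of up to 1.01 CPM over these libraries together, counting error only. In bulk tissue, fewer cells of a type and less RNA per cell cannot be told apart.

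All 19 genes passed the filter on low counts in fetuses. On the length-corrected TPM scale (as deposited), ITGB1, the beta chain shared by the largest group of integrins, had the highest median level over the 14 fetus libraries, at 288 TPM. LAMB1 followed at 126 TPM, ITGB5 at 86.3 TPM, ITGA5 at 82.5 TPM, LAMA4 at 61.8 TPM and LAMC1 at 58.5 TPM. ITGAV, the alpha chain of receptors for the RGD motif, had a median of 32.1 TPM and ITGA4 of 12.3 TPM. These levels ranged widely between libraries, so neighbours such as ITGB5 and ITGA5, or LAMA4 and LAMC1, overlapped. The other 11 genes had medians under 10 TPM. ITGB3 was at 7.82, ITGA2 at 7.31, LAMC3 at 5.09, ITGAL at 4.86 and LAMA3 at 3.22 TPM. The lowest were ITGB2 at 2.68, ITGA2B at 2.04, ITGB6 at 1.48, ITGB8 at 1.12, ITGB7 at 0.54 and ITGAM at 0.345 TPM. The low group holds the leukocyte chains ITGAM, ITGB2 and ITGB7, the platelet chain ITGA2B and the epithelial chain ITGB6.

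**Figure D1:**
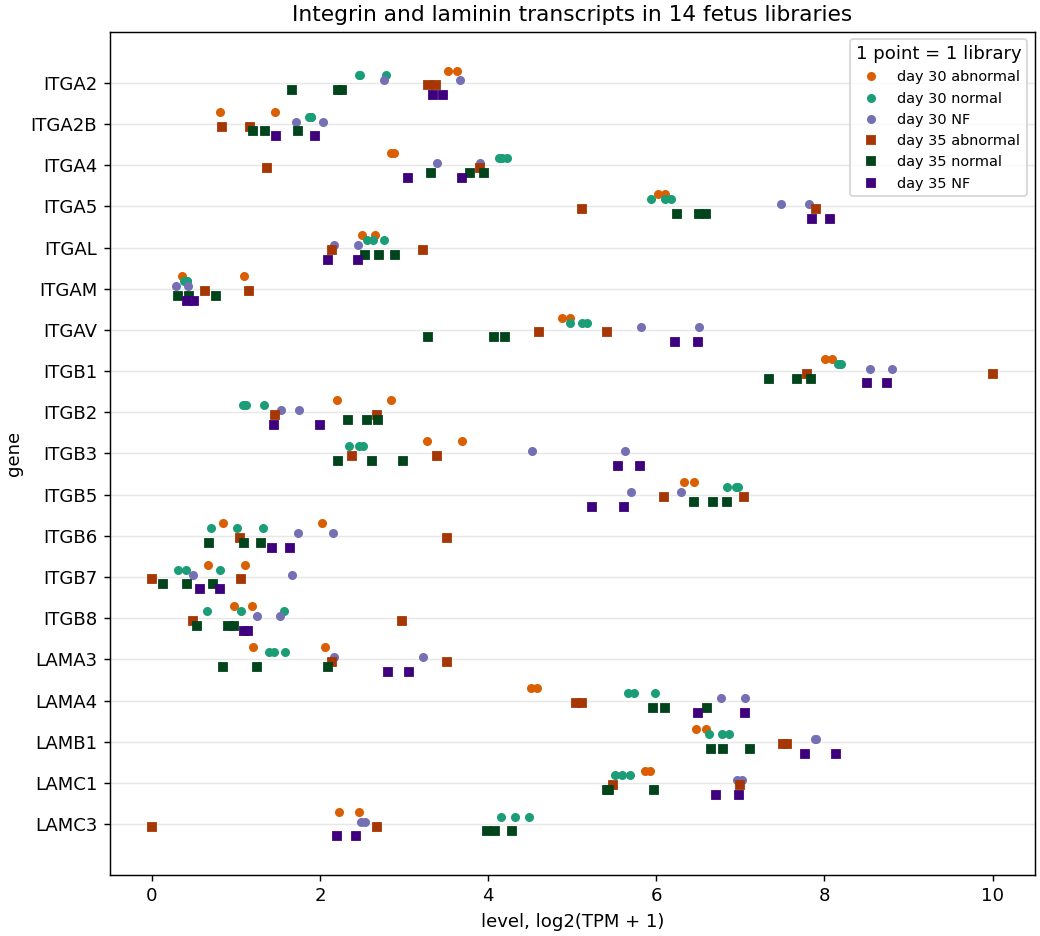
Level of the 19 integrin and laminin genes in each of the 14 fetus libraries, as log2(TPM + 1) on the horizontal axis, 1 point per library, with circles for day 30 and squares for day 35. ITGB1 lies farthest to the right, with day 35 abnormal replicate 2 at 1023 TPM, and LAMC3 in the 6 normal libraries lies to the right of the other 8.

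The first comparison set cloned fetuses titled abnormal against those titled normal. At day 30, 3 of 19 genes were higher (ITGB2, ITGB3 and ITGA2) and 2 were lower (LAMA4 and LAMC3), beside 8.93% of all 9911 tested genes higher and 6.46% lower (15.4% in either direction). At day 35, 7 of 19 were higher (ITGB6, LAMA3, ITGB1, ITGA2, ITGAV, LAMC1 and LAMB1) and LAMA4 and LAMC3 were again lower, beside 10.9% and 12.3% of all genes (23.2% in all). Averaged over both days, 9 of 19 were higher and 2 lower, beside 15.2% and 15.8% (31% in all). The median log2 fold change of the 19 was 0.21 at day 30, 0.91 at day 35 and 0.79 over both days, and that of all genes tested was -0.02, 0.00 and -0.02. With limma on log2(TPM + 1), in which the share of calls that were higher fell from 58.0%, 47.2% and 49.2% of all called genes to 27.7%, 17.3% and 19.4%, the 19 split into 2 higher and 2 lower at day 30, 4 and 2 at day 35, and 1 and 4 over both days. Calls are from edgeR's quasi-likelihood test with Benjamini-Hochberg adjustment over all genes, at adjusted p under 0.05. ITGA2, LAMA4 and LAMC3 passed at each day and over both days. When only the 5 day 35 libraries compared were fitted, none of the 9 day 35 calls passed, with adjusted p of 0.0657 to 0.242. The log2 fold changes were of similar size (ITGA2 1.75, LAMB1 0.88 and LAMA4 -0.97).

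ITGA2 pairs with ITGB1 as a receptor for collagen and, on some epithelia, laminin. The annotation (Sscrofa11.1) places it on chromosome 16, 32336240 to 32440311. Day 30 levels were 49.8 and 48.3 CPM in abnormal and 21.0, 16.8 and 16.8 CPM in normal libraries. Day 35 levels were 47.2 and 37.8 CPM in abnormal and 9.08, 14.6 and 14.2 CPM in normal libraries. All 4 abnormal libraries lay above all 6 normal ones. The log2 fold change was 1.44 ± 0.29 (SE) at day 30 (adjusted p = 0.00964), 1.79 ± 0.31 at day 35 (adjusted p = 0.00292) and 1.61 ± 0.21 over both days (adjusted p = 0.000402). Without day 30 abnormal replicate 1 or 2 the day 30 value was 1.42 or 1.45, with adjusted p of 0.0558 and 0.0615.

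ITGAV, on chromosome 15 from 91604666 to 91711843, is the alpha chain that joins ITGB1, ITGB3, ITGB5, ITGB6 or ITGB8. In day 30 fetuses it measured 128 and 126 CPM in abnormal and 120, 121 and 108.5 CPM in normal libraries, a log2 fold change of 0.13 ± 0.27 (adjusted p = 0.783). In day 35 fetuses it measured 113 and 173 CPM in abnormal and 35.1, 64.2 and 59.4 CPM in normal libraries, a log2 fold change of 1.40 ± 0.28 (adjusted p = 0.00607). The abnormal libraries at day 35 lay within or above the range of the day 30 clones, and the day 35 normal libraries were the low ones. The difference between the days, 1.27 ± 0.40, had an adjusted p of 0.0947.

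ITGA5, the fibronectin receptor chain, differed more between the 2 day 35 abnormal libraries than between groups, at 203 and 1235 CPM, against 373, 414 and 443 CPM in normal libraries. Its log2 fold change was 0.79 ± 0.50 at day 35 (adjusted p = 0.280) and 0.29 ± 0.50 at day 30 (adjusted p = 0.734). ITGA4, which binds VCAM1 and fibronectin, stood at 35.0 and 35.5 CPM in day 30 abnormal and at 76.9 to 78.6 CPM in day 30 normal libraries, without overlap, and its log2 fold change of -1.15 ± 0.54 had an adjusted p of 0.170. At day 35 its 2 abnormal libraries were 9.98 and 75.5 CPM, on either side of the normal 46.7, 69.5 and 62.3 CPM.

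Among the beta chains, ITGB1 lies on chromosome 10 from 56078393 to 56130608. At day 30 it stood at 1035 and 1148 CPM in abnormal and at 931, 1002 and 982 CPM in normal libraries. At day 35 it stood at 1017 and 4076 CPM in abnormal and at 614, 803 and 729 CPM in normal libraries. The 4 abnormal libraries lay above the 6 normal ones, and 1 of them, the shallow day 35 replicate 2, was far above the rest. The log2 fold change was 0.17 ± 0.41 at day 30 (adjusted p = 0.813) and 1.83 ± 0.40 at day 35 (adjusted p = 0.00920). At day 35 it was 0.55 (adjusted p = 0.0359) without that library and 2.49 (adjusted p = 1.22e-05) with it as the only abnormal library, so its size rests on which library is used. Smooth muscle markers were also highest in that library, at 8460 CPM, against 846 CPM in abnormal replicate 1 and 1320 to 2020 CPM in day 35 normal libraries. Of 5 matched, 1 was higher at day 35 and none lower. ITGA5 and LAMC1 were likewise highest there among the day 35 clones, and the part of these markers in the 3 values was not tested.

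ITGB2, on chromosome 13 from 207514281 to 207544108, is the beta chain of leukocyte integrins. Day 30 levels were 10.9 and 19.7 CPM in abnormal and 2.89, 2.89 and 3.88 CPM in normal libraries, a log2 fold change of 2.24 ± 0.44 (adjusted p = 0.00815). Day 35 levels were 6.14 and 16.2 CPM in abnormal and 15.6, 13.03 and 10.96 CPM in normal libraries, a log2 fold change of -0.51 ± 0.50 (adjusted p = 0.501). The groups were apart at day 30 and overlapped at day 35. The overlap came from abnormal replicate 2, the shallow library, and the 2 abnormal libraries held 22 counts of ITGB2 together. Abnormal replicate 1, at 6.14 CPM, lay below the 3 normal libraries. Without day 30 abnormal replicate 2 the day 30 value was 1.75 (adjusted p = 0.0841). The change of the effect between days was the only one of the 19 to pass, beside 4.05% of all genes (1.31% higher and 2.73% lower), at -2.74 ± 0.67 (adjusted p = 0.0448), and 4 of 19 had an unadjusted p under 0.05. That call was lost in 16 of 22 alternatives, among them no filter on low counts (adjusted p = 0.0640), only the compared groups (0.0570) and leaving out single libraries (up to 0.150).

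At day 30 ITGB2 moved with markers of leukocytes. Of 13 matched leukocyte markers, 8 were higher in abnormal libraries at day 30 and none lower, and at day 35 none were higher and 7 lower. Their sum was 294 to 411 CPM in day 30 abnormal and 92.1 to 119 CPM in day 30 normal libraries. At day 35 it was 54 to 97.8 CPM in abnormal and 216 to 303 CPM in normal libraries. PTPRC, the pan-leukocyte CD45 gene, was at 0 in day 35 abnormal and averaged 1.59 CPM in day 35 normal libraries. That 0 is near the floor, since 3 counts over the day 35 abnormal libraries together equal 1.01 CPM. FERMT3, the kindlin of blood cells that activates beta chains, was 19.2 ± 3.1 CPM (SD, n = 2) in day 30 abnormal and 4.98 ± 0.70 CPM (n = 3) in normal libraries, a log2 fold change of 1.94 ± 0.32 (adjusted p = 0.00370). The other leukocyte chains did not pass at either day: ITGAL had a log2 fold change of 0.21 at day 30 and 0.54 at day 35, ITGAM of 1.34 and 1.54, and ITGB7 of 1.27 and 1.47. ITGAM passed over both days, at 1.44 ± 0.47 (adjusted p = 0.0398), from levels of 1.28 to 6.91 CPM in abnormal and 1.18 to 2.96 CPM in normal libraries that overlapped. Without day 30 abnormal replicate 1 the value for ITGAM was 0.74 (adjusted p = 0.350), without day 35 abnormal replicate 1 it was 0.91 (adjusted p = 0.462), and its call was lost in 13 of 21 alternatives. The part of the leukocyte markers in these values was not tested.

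ITGB3, the partner of ITGAV on many cells and of ITGA2B on platelets, lies on chromosome 12 from 16694466 to 16752228. In day 30 fetuses it measured 58.1 and 44.9 CPM in abnormal and 18.6, 18.9 and 16.8 CPM in normal libraries, a log2 fold change of 1.51 ± 0.35 (adjusted p = 0.0169). At day 35 the values were 23.4 and 45.9 CPM in abnormal and 16.98, 21.9 and 30.1 CPM in normal libraries, which overlapped, and the log2 fold change was 0.42 ± 0.40 (adjusted p = 0.494). Leaving out any 1 day 30 abnormal or normal library gave values of 1.32 to 1.68 at day 30 with adjusted p between 0.0513 and 0.109. The platelet partner ITGA2B was 2.62 and 6.41 CPM in day 30 abnormal and 7.48, 8.07 and 7.93 CPM in normal libraries, with a log2 fold change of -0.79 ± 0.48 (adjusted p = 0.296). Platelet markers summed to 12.4 to 15.3 CPM in the abnormal and 19.6 to 20.8 CPM in the normal libraries of that day, with PPBP at 0 in both groups.

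ITGB5, the second RGD-binding partner of ITGAV, did not pass at either day. At day 30 it stood at 263 and 253 CPM in abnormal and at 279.8, 317 and 319.7 CPM in normal libraries. Its log2 fold change was -0.24 ± 0.29 (edgeR adjusted p = 0.607). At day 35 its abnormal libraries were 458 and 202 CPM and its normal ones 249, 302 and 274 CPM (adjusted p = 0.502). ITGB6 and ITGB8 are partners of ITGAV that activate latent TGF-beta. ITGB6 was 30.7 CPM in day 35 abnormal replicate 1 and 2.70 CPM in replicate 2, against 3.53, 2.57 and 1.37 CPM in normal libraries. Its call at day 35 (log2 fold change 2.95 ± 0.73, edgeR adjusted p = 0.0153) rested on abnormal replicate 1, and the value without replicate 1 was 0.09. Replicate 2 is the shallow library, and its 2.70 CPM is less than 3 counts equal there. The value of 0.09 therefore cannot tell whether ITGB6 differed in replicate 2. The edgeR adjusted p was 0.0512 without normal replicate 3. ITGB8 had its highest level in abnormal replicate 2, at 16.2 CPM from 5.9 estimated counts, and 1.01 to 3.82 CPM elsewhere. It did not pass (edgeR adjusted p = 0.198 at day 35).

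**Figure D2:**
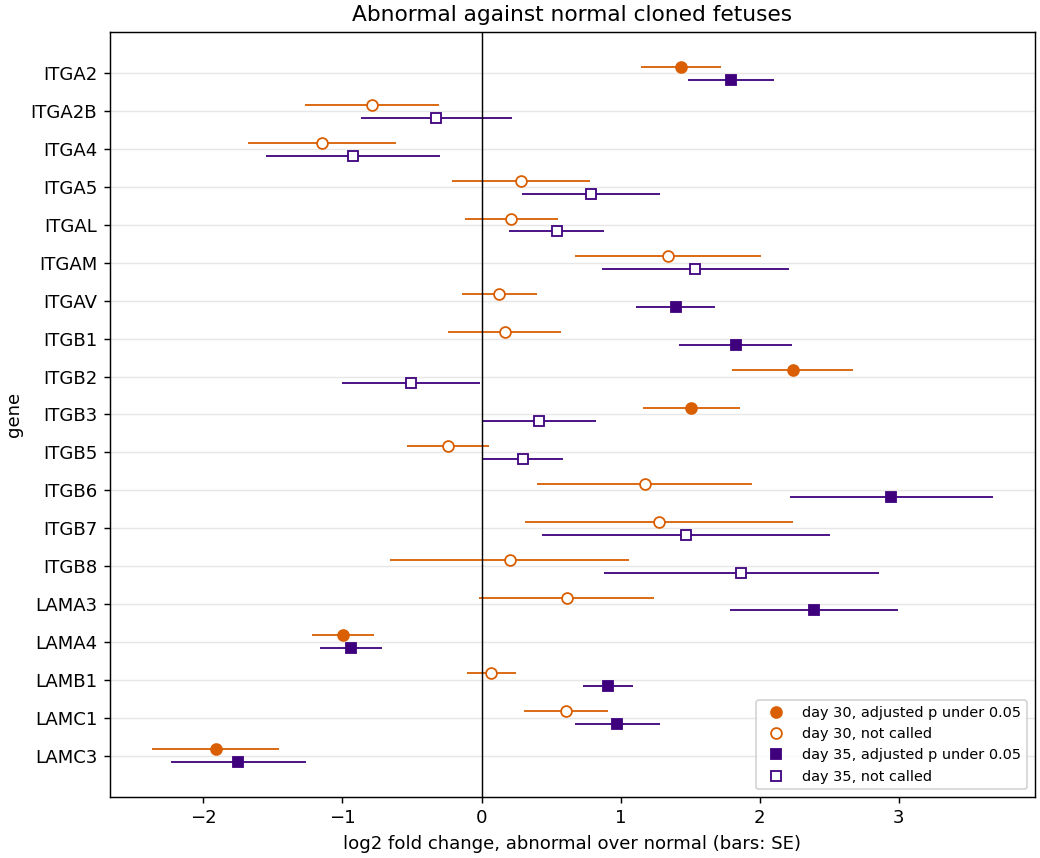
Log2 fold change of each gene in abnormal over normal cloned fetuses, with its SE as a bar, at day 30 (circles) and day 35 (squares), filled where the adjusted p was under 0.05. ITGA2 lies to the right and LAMA4 and LAMC3 to the left at both days, while ITGB2 lies at 2.24 at day 30 and at -0.51 at day 35.

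The laminin chains went in both directions. LAMA4, the alpha chain of vessel, muscle and nerve basement membranes, lies on chromosome 1 from 78071990 to 78224564. At day 30 it stood at 137 and 153 CPM in abnormal and at 254, 280.1 and 333 CPM in normal libraries. In day 35 fetuses it measured 231 and 210.4 CPM in abnormal and 367, 531 and 379 CPM in normal libraries. The abnormal libraries lay below all 6 normal ones. The log2 fold change was -0.995 ± 0.222 at day 30 (adjusted p = 0.0146), -0.94 ± 0.22 at day 35 (adjusted p = 0.0130) and -0.97 ± 0.16 over both days (adjusted p = 0.00125). The day 30 adjusted p became 0.106 and 0.0794 when abnormal replicate 1 or 2 was left out, and 0.0552 when normal replicate 3 was.

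Markers of the tissues that hold LAMA4 went different ways at day 30. Of 8 matched endothelial markers, 1 was higher and none lower in abnormal libraries at day 30, and none were higher and 7 lower at day 35. Their sum was 903 to 1300 CPM in day 30 abnormal, 554 to 593 CPM in day 30 normal, 32.4 to 173 CPM in day 35 abnormal and 699 to 784 CPM in day 35 normal libraries. Of 10 skeletal muscle markers 6 were lower at day 30 and 8 at day 35, of 10 neural markers 8 and 9, and of 6 fibroblast and matrix markers 3 and 2, with none higher in any of these lists. The part of these markers in the LAMA4 values was not tested.

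LAMA3, the alpha chain of the laminin under epithelium, lies on chromosome 6 from 108548818 to 108805700. Day 30 levels were 22.7 and 9.84 CPM in abnormal and 11.6, 9.90 and 10.5 CPM in normal libraries, which overlapped (adjusted p = 0.541). At day 35 it stood at 85.6 and 24.3 CPM in abnormal and at 5.38, 20.5 and 8.68 CPM in normal libraries, a log2 fold change of 2.39 ± 0.61 (adjusted p = 0.0167). Most of that difference came from abnormal replicate 1, since the value was 1.06 (adjusted p = 0.460) without it. The adjusted p at day 35 was 0.0548 without normal replicate 1 and 0.0569 without normal replicate 3.

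The sum of epithelial markers was highest in day 35 abnormal replicate 1, where LAMA3 and ITGB6 were also highest. Of 9 tested epithelial markers, 5 were higher at day 30, 5 at day 35 and none lower at either day. Their sum was 2960 to 3880 CPM in day 30 abnormal and 401 to 451 CPM in day 30 normal libraries. At day 35 it was 7910 CPM in abnormal replicate 1, 645 CPM in abnormal replicate 2 and 545 to 1040 CPM in normal libraries. KRT8, a keratin of simple epithelium, averaged 1941 CPM in day 30 abnormal and 181 CPM in normal libraries. TP63, a marker of stratified epithelium, was at 0 in all 4 abnormal libraries and also in both day 35 NF libraries. Over the abnormal libraries of a day together, 3 counts equal 0.648 CPM at day 30 and 1.01 CPM at day 35, so these zeros set only an upper bound. At day 35 ITGA2 was 47.2 CPM in abnormal replicate 1, and 9.08 to 14.6 CPM in the normal libraries. It was 37.8 CPM in the shallow abnormal replicate 2, whose epithelial sum lay within the normal range. Trophectoderm markers, which share KRT8 and KRT18 with the epithelial list, summed to 2010 to 2580 CPM in day 30 abnormal and 219 to 282 CPM in day 30 normal libraries. KRT8 and KRT18 averaged 1941 and 272 CPM in day 30 abnormal libraries, so these 2 shared genes were most of that sum. At day 35 it was 5440 CPM in abnormal replicate 1, 267 CPM in abnormal replicate 2 and 279 to 418 CPM in normal libraries. The part of these markers in the LAMA3, ITGB6 and ITGA2 values was not tested at either day.

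LAMB1, on chromosome 9 from 107670120 to 107747242, is the beta chain of most embryonic laminins. In day 30 fetuses it measured 548 and 624 CPM in abnormal and 493, 576 and 605 CPM in normal libraries, with a log2 fold change of 0.07 ± 0.18 (adjusted p = 0.820). Day 35 levels were 1283 and 1144 CPM in abnormal and 586, 747 and 608 CPM in normal libraries, a log2 fold change of 0.91 ± 0.18 (adjusted p = 0.00520). Its 2 abnormal libraries at day 35 were close together, and the call held without either, at 0.80 and 1.03. LAMC1, the gamma chain that joins it, lies on the same chromosome from 124283668 to 124405967. It stood at 478 and 522 CPM in abnormal and at 298, 334 and 353 CPM in normal libraries at day 30, a log2 fold change of 0.61 ± 0.30 (adjusted p = 0.198). In day 35 fetuses it measured 415 and 1036 CPM in abnormal and 330.4, 451 and 312 CPM in normal libraries, which overlapped. The log2 fold change of 0.98 ± 0.30 (adjusted p = 0.0390) became 0.23 (adjusted p = 0.392) without abnormal replicate 2. Without normal replicate 1 or 3 its adjusted p was 0.111 and 0.113, and the call was lost in 13 of 22 alternatives.

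LAMC3, on chromosome 1 from 271004423 to 271071223, is a gamma chain known from nerve, brain surface and skin. At day 30 it stood at 14.9 and 19.2 CPM in abnormal and at 69.9, 65.5 and 57.4 CPM in normal libraries, a log2 fold change of -1.91 ± 0.46 (adjusted p = 0.0192). At day 35 it stood at 24.9 and 0 CPM in abnormal and at 56.8, 65.2 and 57.5 CPM in normal libraries, a log2 fold change of -1.75 ± 0.48 (adjusted p = 0.0242). The 0 came from the shallow library, where 3 counts equal 8.09 CPM. Without that library the day 35 value was -1.22 (adjusted p = 0.00228). All 4 abnormal libraries lay under all 6 normal ones. Leaving out any 1 day 30 abnormal or normal library moved the day 30 adjusted p to between 0.0528 and 0.134, and leaving out a day 35 normal library moved the day 35 adjusted p to between 0.0511 and 0.0591.

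Neural markers were also lower wherever LAMC3 was lower. Of 10 matched neural markers, 8 were lower in abnormal libraries at day 30 and 9 at day 35, and none were higher. They summed to 576 to 675 CPM in day 30 abnormal, 2050 to 2590 CPM in day 30 normal, 242 to 329 CPM in day 35 abnormal and 2890 to 4850 CPM in day 35 normal libraries. Their part in the LAMC3 value was not tested.

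**Figure D3:**
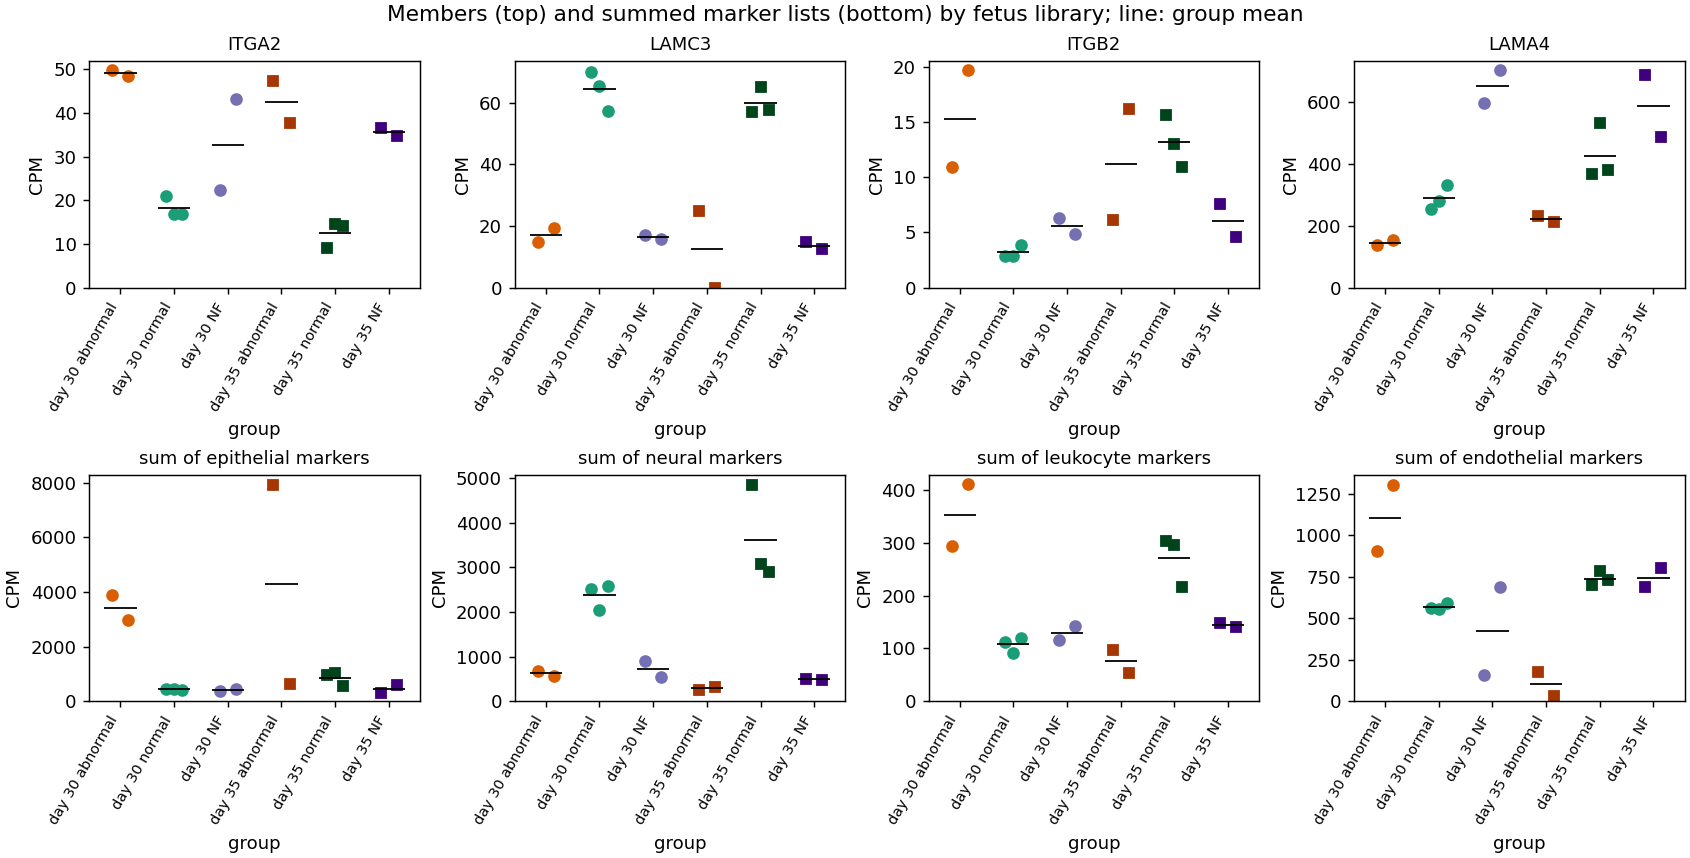
CPM of ITGA2, LAMC3, ITGB2 and LAMA4 in each fetus library (top row) above the summed CPM of the epithelial, neural, leukocyte and endothelial marker lists (bottom row), by group, 1 point per library with a line at the group mean. LAMC3 and the neural sum were high in the 6 normal libraries and low in the abnormal and NF ones. In day 35 abnormal replicates 1 and 2, ITGA2 was 47.2 and 37.8 CPM at epithelial sums of 7910 and 645 CPM.

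The make-up of each family was compared as the share of a chain in the summed TPM of the matched chains of its class, which does not depend on scaling between libraries. In laminin gamma, LAMC3 averaged 6.53% in day 30 abnormal, 28.7% in day 30 normal, 5.49% in day 35 abnormal and 25.5% in day 35 normal libraries, and LAMC1 made up the rest. In laminin alpha, LAMA4 averaged 90.9% against 96.8% at day 30 and 83.1% against 97.8% at day 35, with LAMA3 making up the rest. In integrin alpha, ITGA4 averaged 5.25% against 13.2% at day 30 and 3.28% against 9.69% at day 35. In NF libraries of day 30 and day 35, LAMC3 averaged 3.6% and 3.37%, ITGA4 4.06% and 2.7%, and LAMA4 95.5% and 94.0%. The LAMC3 and ITGA4 shares were thus low in NF as well as abnormal libraries, while LAMA4 in NF was nearer the normal clones. The differences of abnormal from normal clones over both days were -21.08 (LAMC3), -10.29 (LAMA4) and -7.17 (ITGA4) percentage points. Each had a two-sided exact permutation p of 0.01, the smallest that the 100 arrangements within days allow, and an adjusted p of 0.0233 over 7 shares. Each adjusted p was 0.0583 without day 30 abnormal replicate 1 or 2 or day 35 abnormal replicate 2. ITGB5 was lower by 8.85 points with an exact permutation p of 0.04 and an adjusted p of 0.07. The differences of ITGB1 (7.53 points, adjusted p = 0.224), ITGAV (4.81 points, adjusted p = 0.245) and ITGA5 (-3.01 points, adjusted p = 0.85) did not pass the exact permutation test. Shares are of the matched chains only.

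The second comparison set normal clones against NF fetuses, and it shares the normal libraries with the first. At day 30, 8 of 19 genes were lower in normal clones (ITGB3, LAMA3, ITGA5, LAMC1, LAMB1, ITGAV, LAMA4 and ITGA2) and LAMC3 was higher, beside 15.3% of all genes lower and 14% higher (29.3% in all). At day 35, 7 were lower (ITGB3, ITGAV, LAMA3, ITGA2, ITGA5, LAMC1 and LAMB1) and LAMC3 and ITGB5 were higher, beside 20.1% and 22.1% (42.3% in all). The median log2 fold change of the 19 was -0.85 at day 30 and -0.57 at day 35, and that of all genes was 0.00 and 0.06. Both NF libraries of day 30 are among those whose Y-linked level went against the label, and without NF replicate 2 the day 30 count fell to 4, all lower.

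ITGB3 had the widest difference of the 19. It stood at 94.6 and 199.6 CPM in NF libraries at day 30 and at 184 and 233 CPM at day 35, against 16.8 to 18.9 CPM and 16.98 to 30.1 CPM in normal clones. The log2 fold change was -3.02 ± 0.34 at day 30 (adjusted p = 0.00026) and -3.19 ± 0.34 at day 35 (adjusted p = 0.000131). Its platelet partner ITGA2B averaged 7.83 ± 0.31 CPM (SD, n = 3) in day 30 normal and 8.13 ± 2.01 CPM (n = 2) in day 30 NF libraries, with a log2 fold change of -0.06 ± 0.43. Platelet markers summed to 64.8 to 129 CPM in day 30 NF and 117 to 153 CPM in day 35 NF libraries, against 19.6 to 20.8 and 24.4 to 28.4 CPM in normal clones. Of the 3 platelet markers that passed the count filter, 1 was higher and 1 lower in normal clones at day 30, and 2 were lower at day 35. PPBP and TREML1 were at 0 in NF libraries of both days. The part of platelets in the ITGB3 value was not tested.

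ITGAV, the other partner of ITGB3, stood at 206 and 320.0 CPM in day 30 NF and at 310.2 and 268 CPM in day 35 NF libraries. Its log2 fold change in normal clones was -1.18 ± 0.26 at day 30 (adjusted p = 0.00765) and -2.45 ± 0.27 at day 35 (adjusted p = 0.000141), and without day 30 NF replicate 2 it was -0.83 (adjusted p = 0.0987) at day 30. ITGA5 stood at 818 and 994 CPM in day 30 NF and at 997 and 1209 CPM in day 35 NF libraries, above all 6 normal libraries. Its log2 fold change was -1.64 ± 0.49 (adjusted p = 0.0282) and -1.43 ± 0.49 (adjusted p = 0.0358). Without 1 NF or normal library of the same day the ITGA5 adjusted p ranged from 0.0568 to 0.136 at day 30 and from 0.0717 to 0.160 at day 35. Receptors made of these chains bind fibronectin and vitronectin.

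ITGA2 stood at 22.2 and 43.1 CPM in day 30 NF and at 36.4 and 34.8 CPM in day 35 NF libraries. Its log2 fold change in normal clones was -0.85 ± 0.29 at day 30 (adjusted p = 0.0448) and -1.5 ± 0.289 at day 35 (adjusted p = 0.00222), and at day 30 it was -0.29 (adjusted p = 0.527) without NF replicate 2. The day 30 call of ITGA2 was lost in 16 of 22 alternatives. ITGB5 went the other way from ITGAV, at 209 and 129.7 CPM in day 30 NF and 121 and 96.5 CPM in day 35 NF libraries. Its log2 fold change in normal clones was 0.85 ± 0.30 at day 30 (adjusted p = 0.0508) and 1.34 ± 0.30 at day 35 (adjusted p = 0.00527), with an adjusted p of 0.0643 at day 35 without NF replicate 2. ITGB1, at 1581 and 1255 CPM in day 30 NF and 1208 and 1485 CPM in day 35 NF libraries, lay above every normal library but did not pass (adjusted p = 0.336 and 0.0881).

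Among laminins, LAMB1 stood at 1301 and 1235 CPM in day 30 NF and at 1112 and 1506 CPM in day 35 NF libraries. Its log2 fold change in normal clones was -1.18 ± 0.18 (adjusted p = 0.00101) and -1.02 ± 0.18 (adjusted p = 0.00128). LAMC1 stood at 940.2 and 864 CPM in day 30 NF and at 861 and 743 CPM in day 35 NF libraries, with log2 fold changes of -1.46 ± 0.30 (adjusted p = 0.00519) and -1.14 ± 0.30 (adjusted p = 0.0110). Both chains of the common laminin core were therefore lower in normal clones at each day, and LAMC1 had an adjusted p of 0.0693 at day 35 without NF replicate 1. LAMA4 stood at 597 and 703 CPM in day 30 NF libraries, with a log2 fold change of -1.17 ± 0.21 (adjusted p = 0.00264). Day 35 levels were 687 and 486 CPM, which overlapped the normal 531 CPM (adjusted p = 0.0977). LAMA3 stood at 22.1 and 50.9 CPM in day 30 NF and at 35.8 and 45.8 CPM in day 35 NF libraries, with log2 fold changes of -1.78 ± 0.58 (adjusted p = 0.0406) and -1.82 ± 0.58 (adjusted p = 0.0266). The day 30 value of LAMA3 was -1.05 (adjusted p = 0.335) without NF replicate 2. Without 1 day 30 normal library it had an adjusted p of 0.0920 to 0.111, and leaving out 1 day 35 library gave 0.0622 to 0.132 at day 35 for NF libraries and 0.0826 and 0.0865 for normal replicates 3 and 1.

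LAMC3 was the only one of the 5 matched laminin chains called higher in normal clones. It stood at 17.1 and 15.7 CPM in day 30 NF and at 14.7 and 12.6 CPM in day 35 NF libraries, beside 56.8 to 69.9 CPM in the 6 normal libraries. The log2 fold change was 1.97 ± 0.44 at day 30 (adjusted p = 0.00736) and 2.13 ± 0.45 at day 35 (adjusted p = 0.00343), and the day 30 adjusted p was 0.0566 without NF replicate 2. Its NF levels lay within the range of the abnormal clones, 0 to 24.9 CPM. Neural markers went with it here as well, with 7 of 10 higher in normal clones at day 30 and 9 of 10 at day 35, and NF sums of 543 to 897 and 481 to 501 CPM. Fibroblast and matrix markers were uneven: they summed to 36400 to 39300 CPM in day 30 NF and 10800 to 13300 CPM in day 30 normal libraries, and to 27800 to 31500 and 14000 to 24400 CPM at day 35. Of 6 such markers, 3 were lower and 1 higher in normal clones at day 30, and 1 lower and 1 higher at day 35. The part of these markers in the integrin and laminin values was not tested.

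**Figure D4:**
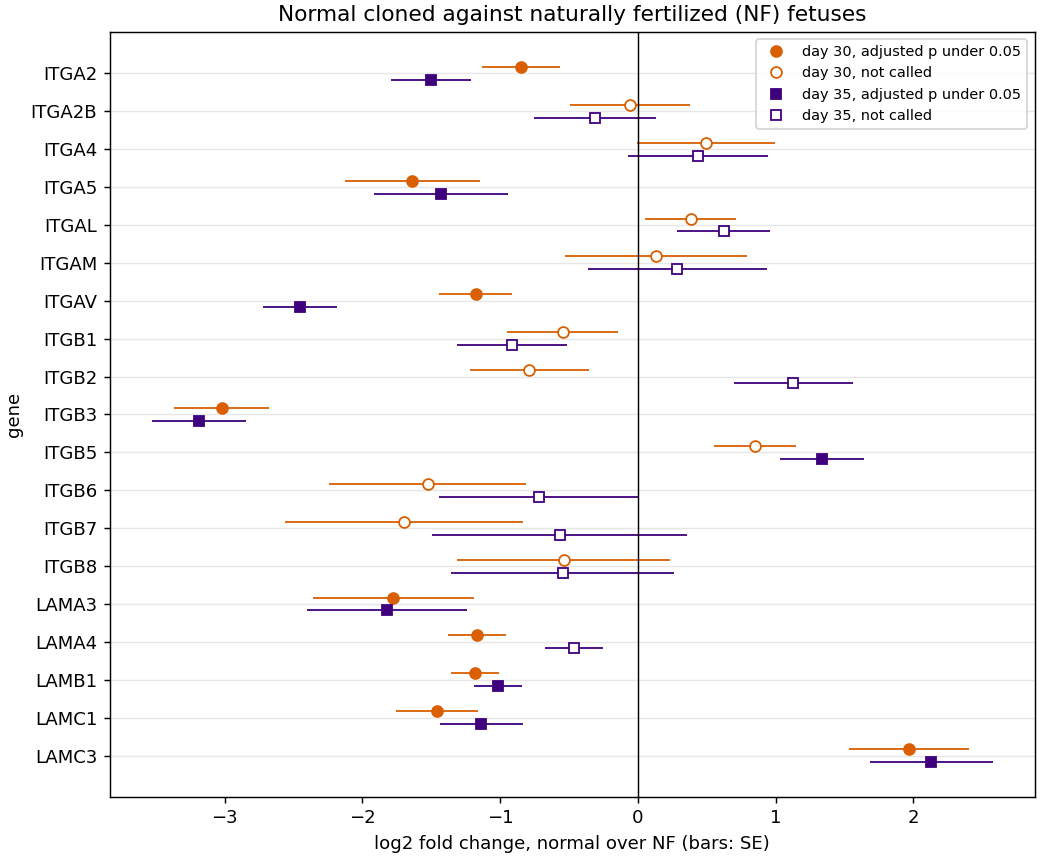
Log2 fold change of each gene in normal cloned over NF fetuses, with its SE as a bar, at day 30 (circles) and day 35 (squares), filled where the adjusted p was under 0.05. ITGB3 lies farthest to the left, at -3.02 and -3.19, and LAMC3 farthest to the right, at 1.97 and 2.13.

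Days 30 and 35 were also compared within each kind of fetus. In normal clones, ITGB2 was higher at day 35 than at day 30 (log2 fold change 2.03 ± 0.40, adjusted p = 0.0143) and ITGAV lower (-1.14 ± 0.25, adjusted p = 0.0194), 2 of 19 beside 9.19% of all genes (5.35% higher and 3.84% lower). Both had non-overlapping libraries, and both calls were lost without day 30 normal replicate 1 or 2 or day 35 normal replicate 1, with adjusted p of 0.0721 to 0.0881. Leukocyte markers rose over the same interval in normal clones, with 9 of 13 higher. In NF fetuses none of the 19 passed, as none of 9911 genes did (0%), and none of the 19 had an unadjusted p under 0.05. DESeq2 and limma on log2(TPM + 1) also called none of the 19 there. Whether the difference between normal clones and NF changed with day was tested as an added contrast, in which none of the 19 passed, beside 0.0202% of all genes, and 3 had an unadjusted p under 0.05.

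Genes that work with integrins and laminins were counted from lists of their partners. Of 15 matched focal adhesion adaptors and kinases, which join integrins to actin, 2 were higher in abnormal than normal clones at day 30 and 5 at day 35, beside 8.93% and 10.9% of all genes, and none were lower. ZYX, which gathers at adhesions under tension, was higher at both, at 321 ± 46 CPM (n = 2) against 155 ± 11 CPM (n = 3) at day 30 (log2 fold change 1.05 ± 0.28, adjusted p = 0.0275) and 746 against 237.5 CPM at day 35 (1.64 ± 0.28, adjusted p = 0.00258). FERMT1, the kindlin of epithelium, averaged 13.1 ± 10.8 CPM against 2.36 CPM at day 35 (2.65 ± 0.49, adjusted p = 0.00406), and ACTN1, an actin crosslinker, 1812 ± 2145 CPM against 266 CPM (2.76 ± 0.65, adjusted p = 0.0122). The list summed to 9340 CPM in day 35 abnormal replicate 2 and to 3070 CPM in replicate 1, with 2700 to 2930 CPM in normal libraries. Against NF, 2 of 15 were lower in normal clones at day 30 and 4 at day 35, beside 15.3% and 20.1% of all genes. In that direction the list was near the share of all genes at both days. None of the 15 were higher at either day, beside 14% and 22.1% of all genes.

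Of 17 matched integrin ligands other than laminins, 3 were higher in abnormal than normal clones at day 30 and none lower. Of all genes, 8.93% were higher and 6.46% lower. At day 35, 5 ligands were higher and 1 lower, beside 10.9% and 12.3% of all genes. Their sum was 7550 CPM in day 35 abnormal replicate 1, close to the normal range of 5720 to 7290 CPM, and 30700 CPM in the shallow replicate 2. TGFB1, whose latent form is a ligand of the ITGAV receptors, averaged 145 against 22.3 CPM at day 30 (log2 fold change 2.70 ± 0.30, adjusted p = 0.000522) and 113 against 39.0 CPM at day 35 (1.47 ± 0.32, adjusted p = 0.00793). ICAM1, the ligand of leukocyte integrins, averaged 21.2 against 9.70 CPM at day 30 (1.11 ± 0.32, adjusted p = 0.0402) and 32.7 against 7.08 CPM at day 35 (2.33 ± 0.34, adjusted p = 0.00113). THBS1, a matrix ligand, averaged 8556 ± 10940 CPM (SD, n = 2) against 406 CPM at day 35 (4.40 ± 0.83, adjusted p = 0.00442). The SD of THBS1 exceeds its mean, so its 2 abnormal libraries were far apart and 1 of them carried most of the average, as for ACTN1. Against NF, 11 of 17 ligands were lower in normal clones at day 30 and 8 at day 35, beside 15.3% and 20.1% of all genes. None of the ligands were higher, beside 14% and 22.1% of all genes. The ligands summed to 27600 to 28500 CPM in day 30 NF and 5460 to 6520 CPM in day 30 normal libraries, and to 26500 to 34700 and 5720 to 7290 CPM at day 35.

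Laminin receptors other than integrins were split in direction. Of 10 tested, 2 were higher and 2 lower in abnormal clones at each day. Of all genes, 8.93% were higher and 6.46% lower at day 30, and 10.9% and 12.3% at day 35. SDC4, a heparan sulfate receptor of adhesions, averaged 38.7 against 12.4 CPM at day 30 (log2 fold change 1.64 ± 0.17, adjusted p = 0.000379) and 49.4 against 15.3 CPM at day 35 (1.70 ± 0.18, adjusted p = 0.000275). RPSA, a ribosomal protein also named as a laminin receptor, averaged 3014 against 1576 CPM at day 30 and 3048 against 1913 CPM at day 35. The muscle sarcoglycans SGCD (4.55 against 18.0 CPM, adjusted p = 0.00511) and SGCB (16.4 against 41.1 CPM, adjusted p = 0.00859) were lower at day 30. The sarcoglycan SGCE (24.3 ± 30.5 CPM, SD, n = 2, against 106 CPM, adjusted p = 0.0184) was lower at day 35. The SD of SGCE exceeds its mean, so its 2 abnormal libraries were far apart. Of 6 matched basement membrane partners of laminin, none passed at day 30 and 1 passed at day 35, beside 15.4% and 23.2% of all genes. It was NTN4, at 56.8 ± 38.0 CPM (SD, n = 2) against 19.0 CPM (1.44 ± 0.41, edgeR adjusted p = 0.0269).

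In day 6 blastocysts 10 of the 19 genes passed the count filter, and fetus and embryo libraries were prepared differently, so levels are given side by side without a test. ITGA5 was the highest of the 19 in every embryo library, at 33.9 to 112 TPM, and its share of the matched integrin alpha sum averaged 79.6% to 96.7% by group. ITGB5 had a median of 4.71 TPM, ITGB1 of 3.8 TPM, LAMC1 of 5.48 TPM, LAMB1 of 5.89 TPM and ITGA2B of 5.16 TPM. ITGB2, ITGB6, ITGB8 and LAMA3 had no count in any of the 8 libraries, which allows a level of up to 0.0358 CPM over the 8 together, counting error only. ITGA2, ITGA4 and LAMC3 had counts in 1 library and LAMA4 in 2, all of them IVF. Both laminin chains measured in all 8 libraries, LAMB1 and LAMC1, thus had no matched alpha chain with a count beside them in the cloned embryos. Epithelial markers, which include the trophectoderm keratins KRT8 and KRT18, summed to 36100 to 105000 CPM, and fibroblast and matrix markers to 0 to 9.18 CPM.

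LAMB1 stood at 10.8 and 7.66 CPM in WT, 46.2 and 83.0 CPM in XIST-KO, 84.6 and 50.9 CPM in WT+Kdm4A and 42.4 and 62.9 CPM in IVF libraries. LAMC1 stood at 5.80 and 16.7 CPM in WT, 46.9 and 158 CPM in XIST-KO, 138 and 68.7 CPM in WT+Kdm4A and 49.7 and 88.8 CPM in IVF libraries. For both genes the 2 WT libraries were below the other 6. WT against IVF had a log2 fold change of -2.51 ± 0.79 for LAMB1 (adjusted p = 0.0833) and -2.62 ± 0.87 for LAMC1 (adjusted p = 0.0962). XIST-KO against WT had 2.81 ± 0.79 for LAMB1 (adjusted p = 0.0951) and 3.19 ± 0.89 for LAMC1 (adjusted p = 0.0936). WT+Kdm4A against WT had 2.87 ± 0.80 for LAMB1 (adjusted p = 0.04998) and 3.20 ± 0.89 for LAMC1 (adjusted p = 0.0505). These 3 comparisons share the 2 WT libraries, and WT total counts, 7.704 and 8.799 M, were below the 17.543 to 20.352 M of XIST-KO and WT+Kdm4A and above the 6.449 and 6.554 M of IVF. The part of depth in these values was not tested. Y-linked levels also separated WT+Kdm4A from WT, and this cannot be told apart from the group difference there.

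By edgeR's quasi-likelihood test, none of the 10 genes passed in WT against IVF, beside 5.71% of all 6958 tested genes (4.28% higher and 1.42% lower), and 2 had an unadjusted p under 0.05. None passed in XIST-KO against WT, beside 1.11% (0.417% higher and 0.69% lower), with 2 at an unadjusted p under 0.05. In each of these comparisons DESeq2 called 2 of 10. In simulated counts of WT against IVF, the edgeR test called 6% of genes changed by a log2 of 2 and 69% of those changed by 4. A gene that did not pass in embryos can therefore still differ. In WT+Kdm4A against WT, 1 of 10 passed, LAMB1, beside 7.43% of all genes (2.95% higher and 4.48% lower), and its call was lost in 9 of 15 alternatives. The median log2 fold change of the 10 was -2.20 in WT against IVF, 2.02 in XIST-KO against WT and 0.77 in WT+Kdm4A against WT, beside -0.23, 0.15 and 0.35 for all genes. Several integrins differed widely between libraries of 1 group. ITGB1 stood at 2.74 and 13.8 CPM in WT, 8.996 and 68.9 CPM in XIST-KO, 39.2 and 8.46 CPM in WT+Kdm4A and 21.1 and 40.2 CPM in IVF libraries. XIST-KO replicate 2 had the highest ITGB1, ITGB5 (62.6 CPM), ITGB3 (10.8 CPM), ITGAV (7.13 CPM) and LAMC1 of the 8 libraries and the lowest ITGA2B (0.563 CPM). ITGA2B stood at 31.7 and 32.4 CPM in WT and at 69.9 and 44.2 CPM in IVF libraries (adjusted p = 0.706), while platelet markers summed to 0 to 10.1 CPM in the 8 libraries. ITGA5 had log2 fold changes of -0.44 to 0.78 in the 3 comparisons, none of which passed.

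**Figure D5:**
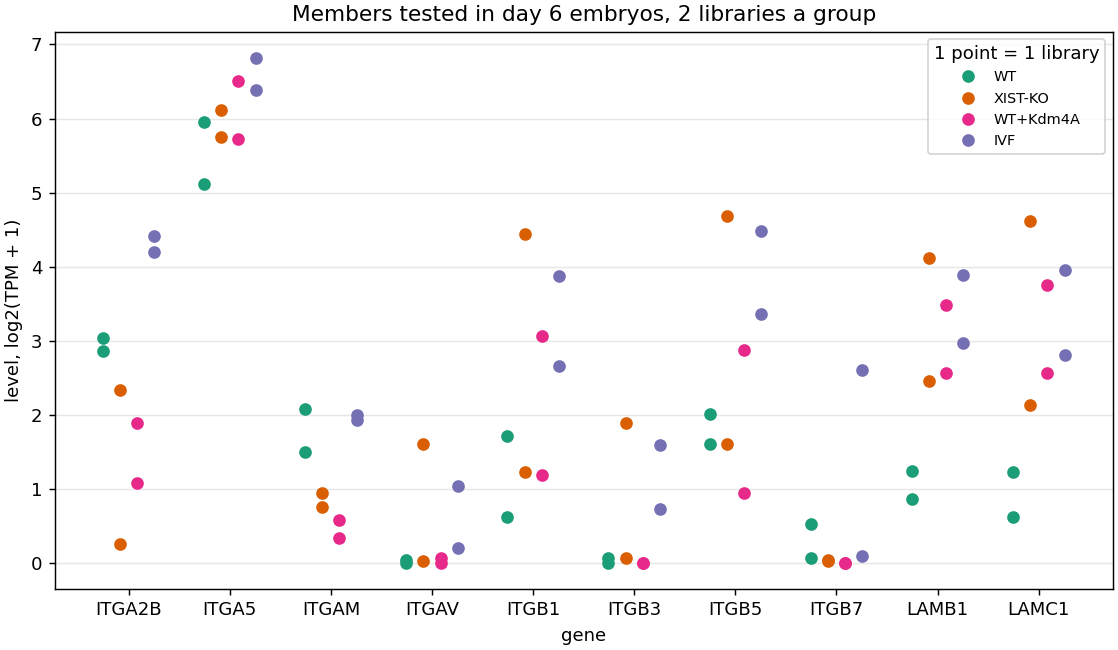
Level of the 10 tested genes in the 8 day 6 blastocyst libraries, as log2(TPM + 1) on the vertical axis, coloured by group with 2 libraries each. ITGA5 is the highest gene in each group, and the WT points of LAMB1 and LAMC1 lie under those of the other 3 groups.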

How the data were processed

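RNA-seq tables of 14 fetal and 8 day 6 blastocyst libraries were used. Libraries were built with NEBNext kits from total RNA (fetuses) or cDNA (embryos), per the labels' protocols. RSEM 1.2.4 and Sscrofa11.1 are named in the submitters' processing notes; the aligner is not given in the sources used here. The deposited tables give expected counts per RefSeq transcript record, per the file headers. The deposited TPM, also per the file headers, is scaled to transcript length.

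Records were matched to genes by accession without version (25305 of 65927, 38.4%), which held 66% to 69% of counts in fetuses and 79.5% to 85% in embryos, and counts were summed per symbol and rounded. Coordinates are those of the same build in the RefSeq gene table. Each stage was fitted as a whole in edgeR 4.0.16 (R 4.3.3): filterByExpr, TMM scaling, quasi-likelihood F-tests, Benjamini-Hochberg adjustment over all genes, threshold 0.05. Fetuses had a biological coefficient of variation of 0.29 and embryos one of 0.893. The SE is the absolute log2 fold change over the square root of F. Chain shares used deposited TPM, chains with a mean share of at least 5%, and an exact permutation within days. Values in every library are given for called genes whose libraries did not overlap, up to 10 per comparison, and for the most abundant chains. Up to 4 called genes per partner or marker list were eligible by size of change. ITGA4, ITGAM, ITGA2B, ITGB6, ITGB8, LAMA3 at day 30 and the embryo values were named for other reasons, after their values were seen. The same holds for TP63, PPBP and TREML1. The members and lists were chosen with earlier results of these data known. The script was tested on simulated counts, with 100 genes changed at each of 2 sizes, a log2 change of 2 or 4. It called 81% and 96% of them in abnormal against normal at day 30. In WT against IVF at day 6 it called 6% and 69%. Alternatives were RLE size factors, other filters, DESeq2 1.42.0, limma 3.58.1 on log2(TPM + 1), only the compared groups, a replicate block, version-matched records and leaving out each library. Floors of 3 counts cover counting error only. Python 3.11.15 was used for tables.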

Additional observations from a re-analysis of the deposited data

Results flagged for a closer look

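ITGB2 had a different abnormal effect at the 2 fetal days by the test of the difference itself: the log2 fold change of abnormal over normal clones was 2.24 at day 30 and -0.51 at day 35, a difference of -2.74 ± 0.67 (edgeR adjusted p = 0.0448). Leaving out 1 library at a time gave -3.30 to -1.96, with adjusted p of 0.0108 to 0.150, and the call was lost in 16 of 22 alternatives. In normal clones ITGB2 itself rose between the days, from 2.89 to 3.88 CPM to 10.96 to 15.6 CPM. Leukocyte markers had the same test: 8 of 13 passed, all with a lower effect at day 35. Their part in the ITGB2 value was not tested. No group held the 4 to 10 libraries that a check for outlying libraries needs.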

How the results depend on the processing

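None of the called integrin and laminin genes changed sign under any alternative run for them, and partner and marker genes were not rerun singly. Fitting only the compared groups gave 8 called members in abnormal against normal at day 30, 0 at day 35 (5 libraries, with folds of similar size), 0 in the change of effect between days, 6 in day 35 against day 30 in normal clones and 2 in WT+Kdm4A against WT. Version-matched records, with 11 of the 19 genes tested in fetuses and 6 in embryos, gave 3, 4 and 5 called in abnormal against normal at day 30, day 35 and both days, 3 in normal against NF at day 30 and 0 in WT+Kdm4A against WT. On log2(TPM + 1) limma called 5 over both days, 1 higher and 4 lower, and 0 in WT+Kdm4A against WT. That scaling moved the median of all genes in abnormal against normal to -0.27, -0.32 and -0.30 (day 30, day 35, both), and the higher share of all calls from 58.0%, 47.2% and 49.2% to 27.7%, 17.3% and 19.4%. In WT against IVF the median moved from -0.23 to -0.51. DESeq2 called 3 in the change of effect and 2 in each embryo comparison. Without a filter 0 were called in the change of effect, 1 in WT against IVF, 2 in XIST-KO against WT and 2 in WT+Kdm4A against WT, for which a 1 CPM filter gave 2 and RLE factors 0. The cause of these shifts was not tested.

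With the replicate block 3, 5 and 6 members were called in abnormal against normal at day 30, day 35 and both days, and 0 in the change of effect. The numbers do not pair the libraries: the correlations of same-numbered normal libraries across days were -0.056, 0.01 and -0.029, and not every library correlated best with its own number. With the replicate block crossed for XIST-KO against WT, where that correlation was -0.31, 286 genes and 0 of 10 members were called.

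Leaving out 1 library at a time, called members ranged from 0 to 7 in abnormal against normal at day 30, 5 to 12 at day 35, 8 to 14 over both days and 0 to 7 in the change of effect. They ranged from 4 to 12 and 6 to 13 in normal against NF at day 30 and day 35, 0 to 4 and 0 to 0 in day 35 against day 30 in normal clones and NF, 0 to 2 in WT against IVF, 0 to 3 in XIST-KO against WT and 0 to 2 in WT+Kdm4A against WT. Where 1 library of a group was left, it is assumed to vary like the other groups. At day 30, 1 member was called without abnormal replicate 1 and 0 without abnormal replicate 2. Chain-share differences ranged from -7.8 to -6.53 points for ITGA4, -11.7 to 5.69 for ITGA5, 0.79 to 8.83 for ITGAV, -0.53 to 15.6 for ITGB1, -16.22 to -1.48 for ITGB5, -14.09 to -6.48 for LAMA4 and -23.82 to -18.33 for LAMC3. ITGA4, LAMA4 and LAMC3 had an adjusted p of 0.0583 without day 30 abnormal replicate 1 or 2 or day 35 abnormal replicate 2, which leaves fewer arrangements. Day 35 abnormal replicate 2, at 0.589 M counts, limits all day 35 values of low genes.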
